A study of Homo sapiens with 6 samples.

Results

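The matrix metalloproteinases (MMP), the ADAM and ADAMTS metalloproteinases and their inhibitors, the TIMPs, were followed in SKOV3 cells after EIF5A2 knockdown. The members were chosen by symbol: every protein-coding gene named MMP, ADAM, ADAMTS or TIMP plus digits, with an optional letter. This gave 66 of the 58825 genes in the table, namely 23 MMP, 20 ADAM, 19 ADAMTS and 4 TIMP genes. SKOV3 is an established human epithelial ovarian cancer cell line. The cells received a negative control siRNA (NC, n = 3) or an siRNA against EIF5A2 (si-EIF5A2, n = 3) for 48 hours. Total RNA was extracted and sequenced as mRNA libraries. EIF5A2 is a paralogue of the translation factor eIF5A, and the comparison asked which transcripts changed when it was depleted. The model is 1 cell line under transient siRNA transfection, and no other treatment was named for either group.

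MMPs are zinc-dependent endopeptidases that cut collagens and other proteins of the extracellular matrix, and most are secreted as inactive precursors. ADAMs are membrane-bound relatives that release the outer parts of growth factors, receptors and adhesion molecules from the cell surface, while ADAMTS proteases are secreted and act mainly on proteoglycans, procollagens and microfibrils. TIMPs bind the active site of these enzymes. In ovarian carcinoma MMPs are best known from peritoneal attachment and invasion.

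The libraries held 46900204 to 74142267 estimated counts, in which 1 sequenced fragment was worth about 3.72 counts. EIF5A2 fell from 29.1 ± 1.15 CPM (the gene's counts scaled to a common library total, SD, n = 3) to 3.69 ± 0.817 CPM, a log2 fold change of -2.98 (SE 0.18, edgeR adjusted p = 1.6e-05). The ovarian epithelial markers KRT7, KRT8, KRT18 and PAX8 were present, EPCAM was at 1.56 CPM in the NC libraries and 1.37 CPM in si-EIF5A2 on average, and MUC16 was at 0 in all 6 libraries. The epithelial list of 9 genes summed to 1508 to 1675 CPM in the NC libraries and 958 to 1170 CPM in the si-EIF5A2 libraries. Of its 8 tested genes KRT7, KRT8 and PAX8 were called lower (37.5%, against 24.6% of all genes called) and 5 were not called. The log2 fold changes of these 5 were -0.08 for KRT18, -0.39 for KRT19, -0.19 for EPCAM, 0.37 for WT1 and -0.02 for ERBB2. The 7 fibroblast markers summed to 1.17 to 1.52 CPM in the NC libraries and 0.861 to 3.46 CPM in si-EIF5A2, and the 5 endothelial markers to 2.25 to 2.40 and 0.156 to 1.31 CPM. The fibroblast marker PDGFRB was called lower (edgeR adjusted p = 0.0222), with 0.260, 0.734 and 0.808 CPM in NC against 0, 0 and 0.0834 CPM in si-EIF5A2. Neither COL1A1 (mean 0.598 CPM in NC, 1.30 in si-EIF5A2) nor PDGFRA (0.170 and 0.0764) was called. COL1A2 had counts only in si-EIF5A2 replicate 1, and COL3A1, DCN and LUM only in si-EIF5A2 replicate 3. The endothelial marker PECAM1 was called lower by DESeq2 but not by edgeR (edgeR adjusted p = 0.0941). The leukocyte markers PTPRC and CD3E were at 0, and the leukocyte sum of 41.2 to 57.9 CPM in the NC libraries and 30.1 to 56.3 CPM in si-EIF5A2 was nearly all CD68. The part of these markers in the results was not tested, and in bulk RNA fewer cells of a type and less RNA per cell cannot be told apart. The labels do not say whether the libraries came from separate cultures, so the p-values measure the spread between these libraries, which may be technical.

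Of the 66 members, 39 passed the filter on low counts and were tested. A gene was called when its Benjamini-Hochberg adjusted p over all 16208 genes tested was under 0.05 in edgeR's quasi-likelihood test and its fold change was over 1.5. By this rule 22 of the 39 tested members changed (56.4%), against 24.6% of all genes tested. Among them 10 were upregulated, against a background of 11.1%, and 12 were downregulated, against 13.6%. The median log2 fold change of the tested members was 0.14, beside -0.01 over all genes, and the median size of the change was 0.79 beside 0.45. The CPM ranges of the groups did not overlap for 28 of the 39, against 51.2% of all genes. With no limit on the fold change 25 of the 39 had an adjusted p under 0.05, against 36.9%, and 16 had an unadjusted p under 0.05 with a fold over 2, against 14.6%. Since a member could pass the filter through the group in which it was high, these counts describe the tested members only.

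**Figure D1:**
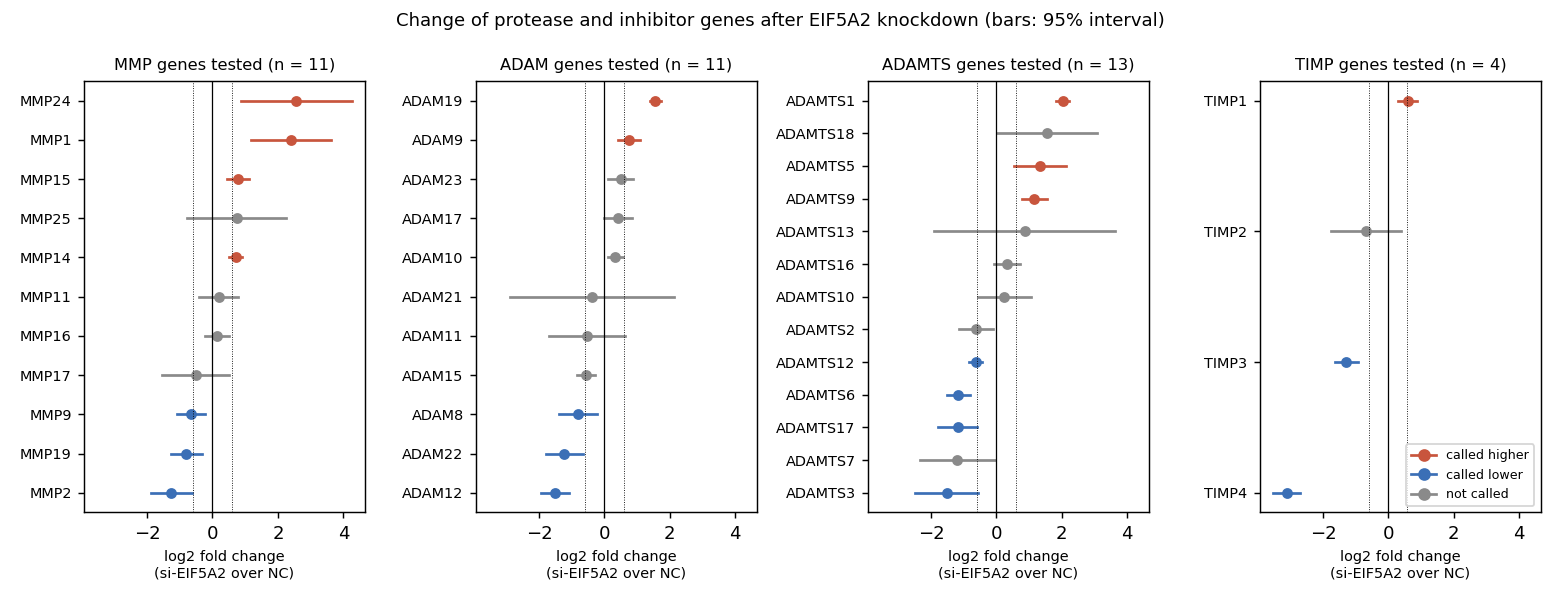
Log2 fold change (si-EIF5A2 over NC, horizontal axis) of the 39 tested genes, 1 panel per family, with points for the estimates, bars for 95% intervals and dotted lines at the 1.5-fold limit; red genes were called higher, blue genes lower and grey genes were not called. In every family genes lie on both sides of 0, from -3.11 for TIMP4 to 2.57 for MMP24.

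The remaining 27 members were too low to test. No count was listed in any library for 16 of them: ADAM2, ADAM18, ADAM29, ADAM30, ADAM33, ADAMTS4, ADAMTS14, ADAMTS19, ADAMTS20, MMP8, MMP12, MMP13, MMP20, MMP26, MMP27 and MMP28. A count of 0 allows up to 3 fragments, or 0.151 to 0.238 CPM depending on the library, counting error only. The other 11 had counts in at least 1 library, never above 33 counts or 0.645 CPM: ADAM7, ADAM20, ADAM28, ADAM32, ADAMTS8, ADAMTS15, MMP3, MMP7, MMP10, MMP21 and MMP23B. Several of the members at 0 have well known roles elsewhere, such as the neutrophil collagenase MMP8, the macrophage elastase MMP12, the enamel protease MMP20 and the sperm surface protein ADAM2.

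Levels were compared between genes per kilobase of exon. MMP14 had the highest level, with 160.7 ± 2.41 CPM per kb in NC and 262.3 ± 25.5 in si-EIF5A2 (SD, n = 3). TIMP1 followed with 75.4 ± 9.37 and 113.2 ± 15.7 CPM per kb, and TIMP2 with 86.1 ± 3.61 and 53.5 ± 30.3, so that the order of these inhibitors differed between the groups. ADAM19 came next at 18.7 ± 1.04 and 55.0 ± 0.555 CPM per kb. ADAMTS1 and ADAM9 were lower, at 8.59 ± 0.577 and 15.4 ± 1.2 CPM per kb in NC, and at 35.0 ± 2.41 and 25.7 ± 5.24 in si-EIF5A2. Of the 39 tested members 6 averaged at least 100 CPM, 15 at least 10 CPM and 32 at least 1 CPM.

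Promoter sequences are shown for the members on which the results turn. RefSeq promoters (GRCh38.p14) matched 39 of the 66 members by symbol. The 27 without an entry included the called genes MMP1, MMP2, MMP9, MMP19, ADAM9, ADAMTS1, ADAMTS5 and ADAMTS9. The 250 bases before the annotated start are printed 5′ to 3′ for the most abundant protease, for a pair of ADAM genes that moved in opposite directions and for the 3 TIMP genes that were called. Capitals mark the GC box, searched as GGGCGG on both strands, which is the core of Sp1-type sites. The windows are chr14:22836335-22836584 for MMP14 (plus strand), chr5:157575776-157576025 for ADAM19 (minus), chr10:126388478-126388727 for ADAM12 (minus), chrX:47582186-47582435 for TIMP1 (plus), chr22:32801455-32801704 for TIMP3 (plus) and chr3:12158913-12159162 for TIMP4 (minus). The RefSeq start can differ from the GENCODE gene boundary given with a gene.
MMP14: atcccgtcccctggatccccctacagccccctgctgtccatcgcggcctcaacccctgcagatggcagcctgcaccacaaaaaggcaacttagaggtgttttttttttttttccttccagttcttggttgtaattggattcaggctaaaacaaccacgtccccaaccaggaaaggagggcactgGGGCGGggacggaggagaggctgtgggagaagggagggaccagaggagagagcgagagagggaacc
ADAM19: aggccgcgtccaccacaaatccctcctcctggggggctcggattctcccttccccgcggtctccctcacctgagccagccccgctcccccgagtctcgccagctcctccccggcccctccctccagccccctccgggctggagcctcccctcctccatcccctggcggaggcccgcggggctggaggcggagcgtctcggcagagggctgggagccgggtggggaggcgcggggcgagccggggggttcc
ADAM12: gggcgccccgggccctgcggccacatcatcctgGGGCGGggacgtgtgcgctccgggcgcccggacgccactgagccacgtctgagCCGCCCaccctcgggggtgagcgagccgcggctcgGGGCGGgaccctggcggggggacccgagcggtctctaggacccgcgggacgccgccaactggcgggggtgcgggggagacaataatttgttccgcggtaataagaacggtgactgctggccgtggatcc
TIMP1: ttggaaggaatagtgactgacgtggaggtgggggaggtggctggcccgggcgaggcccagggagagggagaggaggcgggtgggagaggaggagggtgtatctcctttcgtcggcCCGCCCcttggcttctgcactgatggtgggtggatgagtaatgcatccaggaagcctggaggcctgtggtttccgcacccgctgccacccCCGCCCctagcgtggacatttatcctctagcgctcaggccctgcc
TIMP3: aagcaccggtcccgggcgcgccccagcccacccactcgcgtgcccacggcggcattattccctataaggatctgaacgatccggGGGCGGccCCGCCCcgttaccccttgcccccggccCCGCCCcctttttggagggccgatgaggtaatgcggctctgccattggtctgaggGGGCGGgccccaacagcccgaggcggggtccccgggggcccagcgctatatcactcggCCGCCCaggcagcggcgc
TIMP4: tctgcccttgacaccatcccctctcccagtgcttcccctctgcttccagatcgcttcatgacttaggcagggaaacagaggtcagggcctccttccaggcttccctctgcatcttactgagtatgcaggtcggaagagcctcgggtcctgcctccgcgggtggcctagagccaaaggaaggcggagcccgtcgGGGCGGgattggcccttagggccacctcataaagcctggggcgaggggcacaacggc

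The TIMP3 window held 5 GC boxes, beginning 166, 158, 131, 76 and 18 bases before the start. The ADAM12 window held 3, the TIMP1 window 2, and the MMP14 and TIMP4 windows 1 each, at 66 and 57 bases before the start. The ADAM19 window held none. Among the 25 tested members with a promoter entry 22 contained the GC box (88.0%), beside 62.5% of the 15540 promoters of all genes tested and 42.6% of all 35116 promoters. It was found in 4 of 5 upregulated members, 8 of 9 downregulated members and 10 of 11 members that were not called. The AP-1 motif TGANTCA, read on both strands, was found in 1 of these 25, ADAMTS12, beside 4.75% of promoters of tested genes, and TATAAA in 1, ADAMTS10, beside 6.03%. Over all 39 members with an entry, AP-1 was in 4 (10.3%, beside 6.57% of all promoters) and TATAAA in 7 (17.9%, beside 10.7%). A match is a run of letters and not a binding site.

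The membrane-type MMPs, which are anchored in the cell surface, were all tested. MMP14, MMP15 and MMP24, the last close to the detection floor, rose and none of the 6 fell, by edgeR, by DESeq2 or at an unadjusted p under 0.05. Among all genes tested 11.1% were called higher and 13.6% lower by edgeR, so the lack of a lower call among 6 genes carries little weight. MMP14 (ENSG00000157227, chr14:22836557-22849027, plus strand) encodes MT1-MMP, a surface collagenase that also activates the precursor of MMP2. Its level was 729, 708 and 716 CPM in the NC libraries and 1088, 1124 and 1301 CPM in the si-EIF5A2 libraries. The groups did not overlap and the NC values lay close together. The log2 fold change was 0.71 (SE 0.08, edgeR adjusted p = 0.000384), and over the alternative fits it stayed between 0.62 and 0.75.

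MMP15, encoding MT2-MMP, was measured at 7.10, 6.23 and 7.49 CPM in the NC libraries and 13.1, 10.4 and 12.3 CPM in si-EIF5A2. Each knockdown library exceeded each control library, with a log2 fold change of 0.78 (SE 0.15, edgeR adjusted p = 0.00398). MMP24, encoding MT5-MMP, was close to the detection floor with 3, 16 and 4 counts in NC and 30, 31 and 46 counts in si-EIF5A2. It passed the filter on low counts through the si-EIF5A2 libraries and gave no value with at least 10 counts in every library. Its log2 fold change of 2.57 (SE 0.73, edgeR adjusted p = 0.0265) therefore rests on few fragments, and the call was lost without NC replicate 1 (2.15), NC replicate 3 (2.39) or si-EIF5A2 replicate 1 (2.68), 2 (2.69) or 3 (2.29). MMP24 also shares 799 of its 4414 exonic bases with MMP24OS on the other strand, and strand handling was not stated. MMP24OS stood at 0.247, 2.03 and 0.213 CPM in the NC libraries and 2.33, 1.92 and 1.33 CPM in si-EIF5A2.

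The other membrane-type genes did not pass the test. MMP16, encoding MT3-MMP, had 8.19 ± 1.09 CPM in the NC libraries and 9.0 ± 0.903 CPM in si-EIF5A2 (log2 fold change 0.14, 95% interval -0.22 to 0.49, edgeR adjusted p = 0.544). MMP17 and MMP25, the members held by a lipid anchor, were low. Their log2 fold changes were -0.51 (edgeR adjusted p = 0.416) and 0.74 (edgeR adjusted p = 0.431), and MMP25 overlaps MMP25-AS1 over 1454 of its 4126 exonic bases.

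MMP1, the interstitial collagenase (ENSG00000196611, chr11:102789920-102798160, minus strand), was the only one of the 3 collagenases with counts. It stood at 0.178, 0.565 and 0.830 CPM in the NC libraries and 3.33, 2.91 and 2.0 CPM in si-EIF5A2. The ranges were apart although the level was low in both groups. The log2 fold change was 2.41 (SE 0.53, edgeR adjusted p = 0.00888). MMP1 lies in a run of 9 MMP genes on chr11:102520508-102955734, which spans 435 kb. Of these 9, MMP8, MMP12, MMP13, MMP20 and MMP27 were at 0, and MMP3, MMP7 and MMP10 had counts below the filter. The stromelysin MMP3, beside MMP1, had 4, 4 and 8 counts in NC and 33, 8 and 4 counts in si-EIF5A2, so 1 library held most of them.

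Both gelatinases, which degrade denatured collagen and the type IV collagen of basement membranes, fell, beside 13.6% of all genes tested. MMP2 (chr16:55389700-55506691) stood at 6.39, 3.90 and 5.04 CPM in the NC libraries and 2.82, 1.72 and 1.88 CPM in si-EIF5A2. Its lowest control value was above its highest knockdown value, and the log2 fold change was -1.25 (SE 0.27, edgeR adjusted p = 0.00848). MMP9 (chr20:46008908-46016561) stood at 25.7, 19.2 and 16.4 CPM in the NC libraries and 11.2, 13.6 and 14.3 CPM in si-EIF5A2. The gap between the groups was small beside the spread within NC, where replicate 1 was highest. The log2 fold change was -0.65 (SE 0.18, edgeR adjusted p = 0.0252), and the call was lost without NC replicate 1 (-0.45), si-EIF5A2 replicate 1 (-0.56) or si-EIF5A2 replicate 2 (-0.68).

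MMP19, a secreted protease active on basement membrane proteins, stood at 4.59, 5.43 and 5.68 CPM in the NC libraries and 3.74, 2.72 and 2.56 CPM in si-EIF5A2. Its log2 fold change was -0.80 (SE 0.21, edgeR adjusted p = 0.0184). The groups were apart, yet the call was lost without NC replicate 2 (-0.77), NC replicate 3 (-0.74), si-EIF5A2 replicate 2 (-0.73) or si-EIF5A2 replicate 3 (-0.70). MMP11, stromelysin-3, was the only tested gene of the stromelysins and matrilysins, at 1.95 ± 0.344 CPM in the NC libraries and 2.22 ± 0.368 CPM in si-EIF5A2 (log2 fold change 0.19, 95% interval -0.40 to 0.78, edgeR adjusted p = 0.611).

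**Figure D2:**
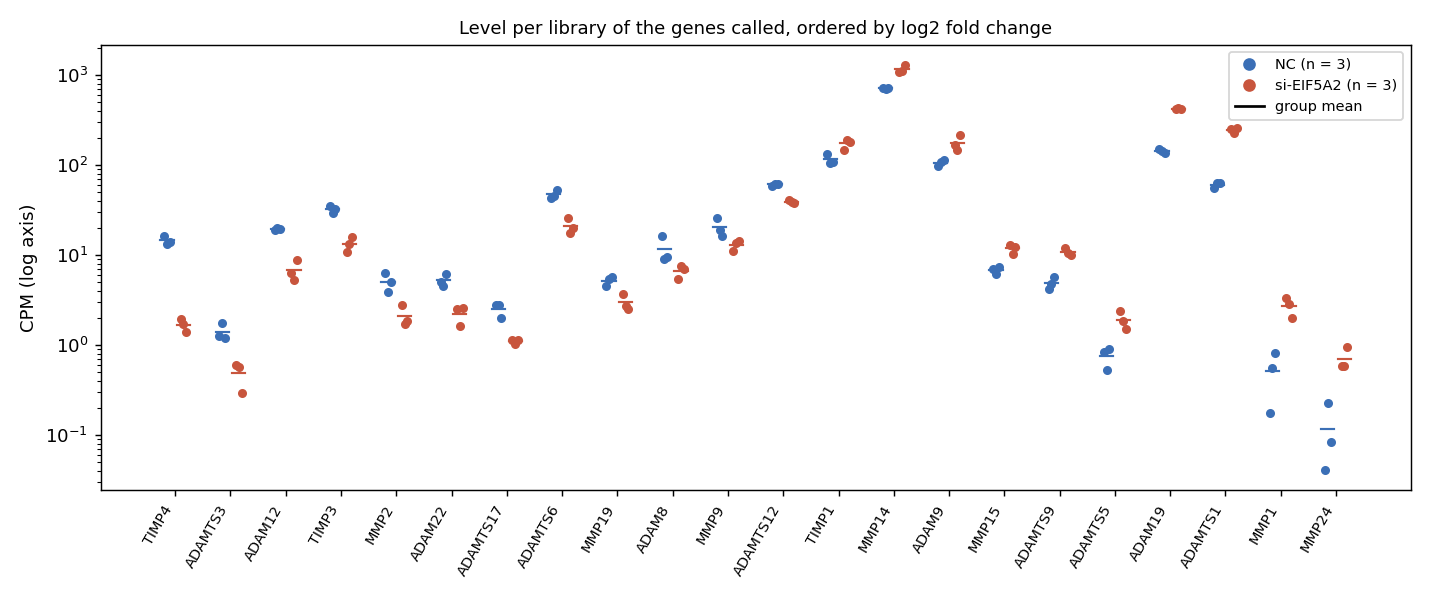
CPM per library (vertical log axis) of the 22 called genes, ordered from the lowest to the highest log2 fold change, with blue points for the 3 NC libraries, red points for the 3 si-EIF5A2 libraries and short lines for group means. The point clouds are widely apart for TIMP4, ADAM19 and ADAMTS1 and close together for MMP9, ADAM8 and TIMP1.

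Among the 8 tested ADAM proteases, ADAM19 and ADAM9 rose and ADAM12 and ADAM8 fell (50.0% called, against 24.6% of all genes tested). ADAM19, or meltrin beta, is a sheddase known from neuregulin processing (ENSG00000135074, chr5:157395534-157575775, minus strand). It stood at 152, 144 and 136 CPM in the NC libraries and 424, 428 and 420 CPM in si-EIF5A2. The knockdown libraries were nearly equal and 2.94-fold higher, with a log2 fold change of 1.56 (SE 0.07, edgeR adjusted p = 6.5e-06). ADAM12, or meltrin alpha, which releases HB-EGF, went the other way (ENSG00000148848, chr10:126012381-126388455, minus strand). It stood at 18.9, 20.1 and 19.7 CPM in the NC libraries and 6.36, 5.31 and 8.78 CPM in si-EIF5A2. No value of one group came near the other, and the log2 fold change was -1.52 (SE 0.19, edgeR adjusted p = 0.000508).

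ADAM9, a widely expressed sheddase (chr8:38996869-39105144), stood at 97.2, 109 and 113 CPM in the NC libraries and 166, 149 and 218 CPM in si-EIF5A2. The log2 fold change was 0.74 (SE 0.14, edgeR adjusted p = 0.00557), and without si-EIF5A2 replicate 3, the highest library, it was 0.56 and below the 1.5-fold limit. ADAM8, best known from leukocytes, stood at 16.2, 9.20 and 9.53 CPM in the NC libraries and 5.50, 7.66 and 6.98 CPM in si-EIF5A2. Its log2 fold change of -0.79 (SE 0.25, edgeR adjusted p = 0.0395) drew on a high NC replicate 1, without which it was -0.48 and not called. The call was also lost without si-EIF5A2 replicate 1 (-0.68), 2 (-0.90) or 3 (-0.83).

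ADAM10 and ADAM17 are the main sheddases of most cells, and neither was called. ADAM10, which starts Notch processing, stood at 50.7, 52.0 and 55.3 CPM in the NC libraries and 72.5, 59.6 and 67.1 CPM in si-EIF5A2. All knockdown values were higher, but the log2 fold change of 0.33 (95% interval 0.11 to 0.55, edgeR adjusted p = 0.0269) was under the fold limit. ADAM17, which releases TNF and EGFR ligands, stood at 35.1, 43.5 and 60 CPM in the NC libraries and 58.3, 61.3 and 65.9 CPM in si-EIF5A2. NC replicate 3 reached the knockdown range, and the log2 fold change was 0.42 (95% interval -0.01 to 0.86, edgeR adjusted p = 0.121). Without that library it was 0.64 and called (edgeR adjusted p = 0.00831).

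ADAM15, which carries an integrin-binding sequence, stood at 69.0 ± 11 CPM in the NC libraries and 46.6 ± 2.57 CPM in si-EIF5A2, a log2 fold change of -0.57 (edgeR adjusted p = 0.00764) just inside the fold limit. It was past the limit without NC replicate 2 (-0.65), NC replicate 3 (-0.62) or si-EIF5A2 replicate 2 (-0.61). ADAM21 had under 1 CPM in every library. The 3 tested ADAMs without protease activity, ADAM11, ADAM22 and ADAM23, are surface proteins known mainly from neurons, where ADAM22 and ADAM23 bind LGI1. ADAM22 stood at 5.04, 4.53 and 6.27 CPM in the NC libraries and 2.52, 1.63 and 2.61 CPM in si-EIF5A2, about 42.6% of the control mean. Its log2 fold change was -1.23 (SE 0.24, edgeR adjusted p = 0.00547). ADAM23 had a log2 fold change of 0.50 (edgeR adjusted p = 0.0475), under the fold limit but past it without NC replicate 2 (0.62) or si-EIF5A2 replicate 2 (0.59), and ADAM11 of -0.53 (edgeR adjusted p = 0.468).

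Among the ADAMTS proteases, all 3 tested proteoglycanases, which cut versican and aggrecan, rose. Of the other 10 tested ADAMTS genes 4 fell and none rose by edgeR or DESeq2, while at an unadjusted p under 0.05 ADAMTS18 was higher. By edgeR 11.1% of all genes tested were called higher and 13.6% lower, so the lack of a higher call among 10 genes carries little weight. ADAMTS1 (ENSG00000154734, chr21:26835747-26845409, minus strand) stood at 56.0, 63.0 and 63.1 CPM in the NC libraries and 253, 228 and 261 CPM in si-EIF5A2. This was 4.08-fold, with a log2 fold change of 2.03 (SE 0.09, edgeR adjusted p = 5.45e-06), and no alternative fit moved it outside 1.97 to 2.08. Its neighbour ADAMTS5, 72.5 kb away and a major aggrecanase of cartilage, stood at 0.850, 0.536 and 0.915 CPM in the NC libraries and 2.39, 1.88 and 1.5 CPM in si-EIF5A2. ADAMTS5 had a log2 fold change of 1.33 (SE 0.34, edgeR adjusted p = 0.0171), lost as a call without NC replicate 2 (1.12) or si-EIF5A2 replicate 1 (1.13). ADAMTS9, a versicanase, stood at 4.23, 4.76 and 5.72 CPM in the NC libraries and 12, 10.7 and 10.2 CPM in si-EIF5A2. The values of ADAMTS9 did not overlap, and its log2 fold change was 1.16 (SE 0.16, edgeR adjusted p = 0.000912).

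ADAMTS6, a protease linked to fibrillin microfibrils, stood at 43.6, 45.4 and 53.5 CPM in the NC libraries and 25.7, 17.8 and 20.1 CPM in si-EIF5A2. The log2 fold change was -1.16 (SE 0.15, edgeR adjusted p = 0.000689). ADAMTS12, which cleaves cartilage oligomeric matrix protein, fell less but with little spread, from 58.6, 62.6 and 62.1 CPM to 41.0, 39.0 and 37.7 CPM, a log2 fold change of -0.64 (SE 0.08, edgeR adjusted p = 0.000549). ADAMTS17 went from 2.53 ± 0.440 to 1.11 ± 0.0670 CPM (log2 fold change -1.19, SE 0.25, edgeR adjusted p = 0.00756). ADAMTS3, which removes the N-propeptide of procollagen and activates VEGF-C, stood at 1.26, 1.78 and 1.21 CPM in the NC libraries and 0.606, 0.575 and 0.292 CPM in si-EIF5A2. Its log2 fold change was -1.52 (SE 0.41, edgeR adjusted p = 0.021), and the call was lost without NC replicate 2 (-1.33). The other tested procollagen N-proteinase, ADAMTS2, had 4.13 ± 0.554 and 2.68 ± 0.556 CPM, a log2 fold change of -0.62 that was not called (edgeR adjusted p = 0.0632).

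ADAMTS7, ADAMTS10, ADAMTS13, ADAMTS16 and ADAMTS18 were not called. ADAMTS7 had a log2 fold change of -1.20 (edgeR adjusted p = 0.0988), and without si-EIF5A2 replicate 2 it was -1.87 and called (edgeR adjusted p = 0.0175). ADAMTS16 had the highest level of them, with 1.26 ± 0.157 CPM per kb in NC and 1.58 ± 0.248 in si-EIF5A2 (log2 fold change 0.33, 95% interval -0.07 to 0.72, edgeR adjusted p = 0.182). ADAMTS13, the protease of von Willebrand factor, was low, with an interval of the log2 fold change from -1.90 to 3.63 that allows a wide range of changes in either direction.

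The TIMPs were all expressed and tested, and by edgeR 1 rose while 2 fell, beside 11.1% and 13.6% of all genes tested. The 1 that rose, TIMP1, was just past the fold limit and was not called by DESeq2. TIMP4 had the lowest log2 fold change of all tested members (ENSG00000157150, chr3:12153051-12159351, minus strand). It stood at 16.2, 13.5 and 14.1 CPM in the NC libraries and 1.96, 1.71 and 1.40 CPM in si-EIF5A2. The knockdown level was 11.6% of the control level, 8.64-fold lower, with a log2 fold change of -3.11 (SE 0.18, edgeR adjusted p = 1.33e-05). TIMP3, the matrix-bound inhibitor that also blocks ADAM17 and several ADAMTS proteases (chr22:32801701-32863043), stood at 35.1, 29.8 and 32.8 CPM in the NC libraries and 10.9, 13.3 and 15.9 CPM in si-EIF5A2. Every knockdown library was below every control library, with a log2 fold change of -1.28 (SE 0.15, edgeR adjusted p = 0.000417).

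TIMP1, a weak inhibitor of MMP14 (chrX:47582313-47586789), stood at 133, 106 and 110 CPM in the NC libraries and 147, 193 and 183 CPM in si-EIF5A2. Its log2 fold change of 0.59 (SE 0.13, edgeR adjusted p = 0.00849) was a 1.502-fold increase, just past the limit. The call was lost in 10 of 14 alternative fits, among them those without NC replicate 2 (0.52), NC replicate 3 (0.54), si-EIF5A2 replicate 2 (0.51) or si-EIF5A2 replicate 3 (0.55), while the adjusted p stayed at or below 0.0359. TIMP2, which bridges MMP14 and the MMP2 precursor, stood at 506, 483 and 466 CPM in the NC libraries and 490, 158 and 256 CPM in si-EIF5A2. Replicate 1 of si-EIF5A2 lay within the control range and the other knockdown libraries well below it. TIMP2 was not called, with a log2 fold change of -0.69 (95% interval -1.76 to 0.39, edgeR adjusted p = 0.277), and without si-EIF5A2 replicate 1 it was -1.24 and called (edgeR adjusted p = 0.00792).

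**Figure D3:**
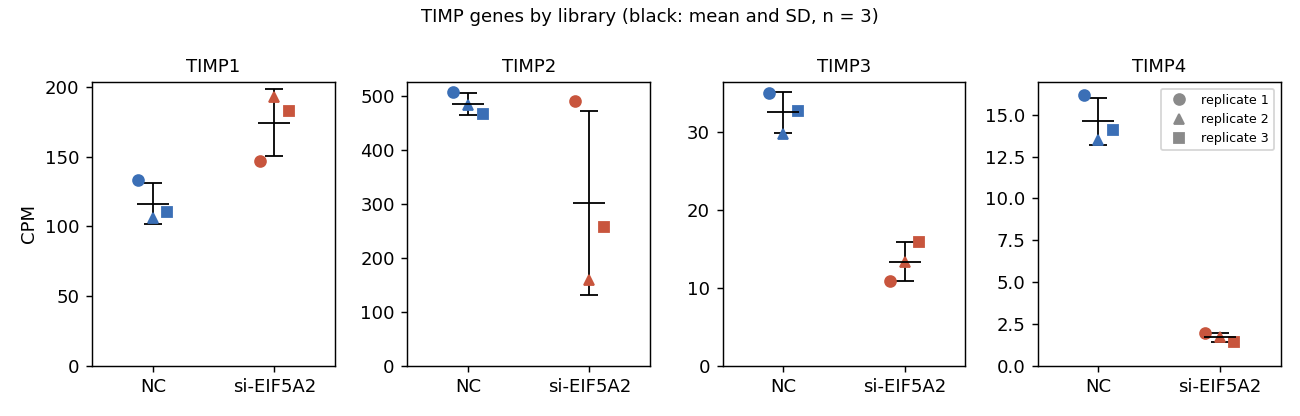
CPM per library (vertical axis from 0, a separate scale in each panel) of the 4 TIMP genes in NC (blue) and si-EIF5A2 (red), with marker shapes for the replicate number and black lines for the mean and SD (n = 3). TIMP3 and TIMP4 were lower in all 3 knockdown libraries, TIMP1 was higher, and TIMP2 was at 490 CPM in replicate 1 of si-EIF5A2 and at 158 and 256 CPM in the others.

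The levels of each family were also summed over all its members. The summed MMP level was 175.0 ± 4.29 CPM per kb in NC and 274.8 ± 25.3 in si-EIF5A2, of which MMP14 made up 91.9% ± 0.977 and 95.4% ± 0.477 (SD, n = 3). ADAM genes summed to 59.1 ± 1.27 and 102.8 ± 5.50 CPM per kb, with ADAM19 at 31.7% ± 1.57 and 53.7% ± 3.30. ADAMTS genes summed to 23.9 ± 1.19 and 45.6 ± 2.49 CPM per kb, and ADAMTS1 went from 36.0% ± 0.757 to 76.9% ± 1.35 of that sum. In these families the ranges of the groups did not overlap. The TIMP sum was 177.4 ± 13.9 CPM per kb in NC and 170.6 ± 14.5 in si-EIF5A2, with overlapping ranges. TIMP2 held 48.6% ± 2.13 of it in NC and 30.5% ± 14.8 in si-EIF5A2, and TIMP1 held 42.4% ± 1.96 and 67.2% ± 14.4. The sums were not tested.

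Exons of 3 members overlap another gene on the same strand and those of 22 on the opposite strand, so reads of these pairs could have been split or shared in counting. Most partners were at or near 0. Without all members that overlap any other gene, 21 tested members remained, of which 6 were upregulated and 6 downregulated. This was 57.1% called, against 24.6% of all genes tested (11.1% higher and 13.6% lower). MMP9 shares 430 of 2336 exonic bases with SLC12A5-AS1, which was at 0.274 to 1.16 CPM, and ADAM17 shares 1323 of 10750 with IAH1, which was at 29.6 to 47.6 CPM. MMP11 shares 218 of 5176 with CHCHD10, which was at 4.97 to 34.0 CPM, and MMP25-AS1 was at 0.617 to 2.88 CPM. Both partners were above their member, MMP11 or MMP25, in every library. The same held for MMP24OS (0.213 to 2.33 CPM) and the called gene MMP24. The called gene MMP19 shares 814 of 4672 with TMEM198B, which was at 0.939 to 2.87 CPM and below MMP19 in every library.

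Genes that act on or with these enzymes were examined as 8 further lists of 68 genes, of which 50 were tested. In these lists 9 genes rose and 2 fell (22.0% called, near the 24.6% of all genes). Over all genes tested 11.1% rose and 13.6% fell. The lists were the convertases that activate the precursors, inhibitors other than TIMPs, partners of ADAM10 and ADAM17, substrates that ADAM10 or ADAM17 release, ADAMTS-like proteins, astacin and meprin proteases, clearance receptors and inducers, and proteoglycan substrates.

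Of 3 tested inhibitors other than TIMPs, 2 rose (66.7% called, against 24.6% of all genes tested, with 11.1% higher). The other 4 of the 7 listed were too low to test. TFPI2, a matrix-bound Kunitz-type protease inhibitor, stood at 19.9, 29.9 and 34.4 CPM in the NC libraries and 115, 144 and 101 CPM in si-EIF5A2 (log2 fold change 2.09, SE 0.23, edgeR adjusted p = 0.000666). SPOCK1, a testican proteoglycan, stood at 13.8, 12.2 and 11.6 CPM in the NC libraries and 45.2, 38.6 and 45.7 CPM in si-EIF5A2 (log2 fold change 1.78, SE 0.11, edgeR adjusted p = 2.17e-05). RECK, a membrane-anchored inhibitor of MMP14, MMP2 and MMP9, was not called, with 9.48 ± 1.56 and 6.76 ± 1.26 CPM (log2 fold change -0.49, edgeR adjusted p = 0.0879).

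Among the 4 tested convertases PCSK5 fell, from 3.96 ± 0.216 to 1.62 ± 0.542 CPM (log2 fold change -1.29, SE 0.28, edgeR adjusted p = 0.00844). FURIN, the convertase best known for activating membrane-type MMPs and ADAMs, had 112.5 ± 11.8 and 95.6 ± 3.63 CPM (log2 fold change -0.23, 95% interval -0.45 to -0.02, edgeR adjusted p = 0.0815). Of the 9 partners of ADAM10 and ADAM17, which steer their trafficking and activity, none was called by edgeR, DESeq2 called TSPAN33 lower, and 5 had an unadjusted edgeR p under 0.05. The iRhom RHBDF1 had the smallest adjusted p of them (log2 fold change -0.57, edgeR adjusted p = 0.00691, under the fold limit).

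Substrates of ADAM10 and ADAM17 included 6 that rose and 1 that fell among 22 tested. The share called was 31.8%, against 24.6% of all genes tested (11.1% higher and 13.6% lower). HBEGF, a ligand of the EGF receptor, stood at 74.0, 66.8 and 72.8 CPM in the NC libraries and 192, 179 and 186 CPM in si-EIF5A2 (log2 fold change 1.38, SE 0.07, edgeR adjusted p = 1.07e-05). The further EGF receptor ligands AREG and TGFA rose by 2.69 and 0.70 on the log2 scale (edgeR adjusted p = 0.000642 and 0.00148), AREG from under 1 CPM. SDC4, a heparan sulfate proteoglycan, stood at 150, 156 and 145 CPM in the NC libraries and 524, 562 and 552 CPM in si-EIF5A2 (log2 fold change 1.86, SE 0.07, edgeR adjusted p = 4.8e-06). The adhesion molecules L1CAM and CDH2 rose by 1.38 and 0.86 on the log2 scale (edgeR adjusted p = 0.000131 and 0.000196). The receptor NOTCH1 was the member of the list that fell, from 59.3 ± 4.74 to 28.4 ± 3.08 CPM. TNFRSF1A, MET and ALCAM had adjusted p-values under 0.05 with changes below the fold limit.

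ADAMTSL5, a secreted relative of the ADAMTS proteins without a protease domain, rose from 2.80 ± 0.999 to 7.76 ± 0.661 CPM (log2 fold change 1.47, SE 0.27, edgeR adjusted p = 0.00383), the only call by edgeR among 6 tested genes of its list. That was 16.7% called, beside 24.6% of all genes tested. DESeq2 also called ADAMTSL4 lower (log2 fold change -0.66, DESeq2 adjusted p = 0.045), which edgeR did not call (edgeR adjusted p = 0.0553). No gene was called by edgeR or DESeq2 among the 2 tested astacins (BMP1 and TLL2), the 2 tested clearance and inducer genes (LRP1 and BSG) and the 2 tested proteoglycans (VCAN and BCAN). At an unadjusted edgeR p under 0.05 BMP1 was higher, TLL2 was lower, and the other 4 did not pass. VCAN, the versican substrate of the proteoglycanases that rose, had 1.83 ± 0.586 CPM in the NC libraries and 1.73 ± 0.566 CPM in si-EIF5A2 (log2 fold change -0.08, 95% interval -0.90 to 0.73, edgeR adjusted p = 0.886).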

How the data were processed

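The 6 SKOV3 mRNA libraries (NC, n = 3, and si-EIF5A2, n = 3, 48 hours), made from total RNA, were sequenced with paired ends. The deposited values were gene-level estimated counts, made by the authors with StringTie and ballgown from a transcriptome assembled on their alignments. They are whole numbers, and low values step by about 3.72 counts. The submitters' processing notes list Bowtie 0.12.2 and the mouse builds mm8 and mm9 without a role, and the human build is not given in the sources used here. Names, GRCh38 coordinates and exon lengths came from GENCODE 29, which held 58552 of the 58825 identifiers. CPM used library totals of 46900204 to 74142267 counts scaled by TMM factors (0.985 to 1.01).

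The main test was edgeR 4.0.16 (R 4.3.3): filterByExpr, TMM, robust quasi-likelihood fit on condition, Benjamini-Hochberg adjustment over 16208 genes. Calls needed an adjusted p under 0.05 and a fold over 1.5. Alternatives were DESeq2 1.42.0, other scalings, filters, thresholds, counts divided by their step, a replicate block and leaving out each library. The scripts were tested on simulated data. With 3 against 3 libraries an exact permutation test of 1 gene cannot go below 0.10. The exon length is the union of a gene's exons. Roles were assigned from general knowledge of the families.

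Named genes were EIF5A2, all called members, all tested MMP and TIMP genes, ADAM9, ADAM10, ADAM17, the 5 highest members per kb and the called genes of the further lists. Others were named after their values were seen. The marker lists are given as sums with some of their genes. The members and lists were chosen with earlier results of these data known.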

Additional observations from a re-analysis of the deposited data

How the results depend on the processing

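The number of called members was 22 of 39 tested (24.6% of all genes called) and lay between 17 and 21 of 39 or 40 when 1 library was left out (21.8% to 23.3% of all genes). It was 21 of the 50 members with any count by DESeq2 (17.0% of all genes with any count) and 22 of the same 50 without a filter on low counts (15.2%). It was 20 of 34 with at least 10 counts in every library (27.8%), 21 of 33 with counts divided by their step (29%), and 25 of 39 with no fold limit (36.9%). At an unadjusted p under 0.05 and a fold over 2 it was 16 of 39 (14.6%), and all genes called were then 2370 in place of 3992. With no fold limit 19 genes of the further lists were called in place of 11. Of the 22 called members 14 were called in every alternative fit at the main thresholds, and ADAM8, ADAM9, ADAMTS3, ADAMTS5, MMP19, MMP24, MMP9 and TIMP1 were lost in at least 1. Over 41 named genes and 570 refitted values 535 kept direction and call, 33 lost the call, 2 gained it and none changed direction. MMP24 and MMP25 gave no value with at least 10 counts in every library or with counts divided by their step. With the replicate number as a block 18 of 39 members were called, beside 23.0% of all genes (ADAM8, MMP24, MMP9 and TIMP1 lost). The labels do not say whether the numbers pair the samples. Deviations of same-numbered libraries correlated at -0.0244, 0.00522 and -0.00269, and those of differently numbered libraries at -0.0412 to 0.0436. These values show no pairing but cannot exclude a weak one. Depth limits the 27 members that could not be tested, and the spread of TIMP2 between the si-EIF5A2 libraries limits that gene.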
